A study of Mus musculus with 6 samples.

Results

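The core circadian clock genes were examined in the liver of MUTYH-null and wild-type mice. Their members were listed by name as Dbp, Nr1d1, Nr1d2, Per1, Per2, Per3, Arntl, Clock, Npas2 and Cry1, and each gene was read from the probe set with the highest mean among those naming only that gene. Of these 10 genes, 9 were measured among 22180 genes on the array. Each of the 9 had 1 such probe set. The only probe set for Per2 also names another gene, so Per2 has no value here.

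The MUTYH-null livers came from 3 Mutyh-/- mice, animals 3003, 3007 and 3008, whose labels give hepatocellular carcinoma (HCC). The wild-type livers set against them came from 3 Mutyh+/+ mice, animals 1025, 1027 and 1001, labelled as without HCC. All 6 were male, on a C57BL/6 background, and received from 8 weeks of age a high-fat high-carbohydrate (HFHC) diet with high iron for 9 months. MUTYH removes adenine paired with 8-oxoguanine, an oxidized base, and it is absent from every cell of these germline nulls. By the study's text the RNA came from the non-tumorous part of the liver. Every MUTYH-null mouse bore a tumor and no wild-type mouse did, so genotype and tumor bearing cannot be told apart. The clock time and the feeding state at sacrifice are not given in the sources used here, and their part in the values that follow was not tested.

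Each liver was hybridized to 1 whole-transcript array, and the values are log2 signals after robust multi-array averaging (RMA), so that a difference between 2 values is a log2 fold change. The array medians lay between 4.51 and 4.55. The hepatocyte transcripts Alb, Apoa1 and Ttr were read as a check of the liver label and averaged 13.2, 11.9 and 12.9 over the 6 arrays. No gene passed an adjusted p under 0.05 in limma (0% of 22180, smallest adjusted p = 0.963), while 2.29% were higher and 2.8% lower in MUTYH-null livers at an unadjusted p under 0.05. In whole liver, fewer cells of a type and less RNA per cell cannot be told apart. The p-values measure the spread between these mice, 3 per group. Over all genes, wild-type mouse 1001 was the highest of the 6 mice in 18.8% of genes and the lowest in 18.1%, and the other 5 mice lay between 14.1% and 18.3%. Among the clock genes the same mouse stood apart, and values without it are therefore given.

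The clock is a loop in which proteins switch off their own genes about once a day. The proteins of Arntl (also called Bmal1) with Clock or Npas2 bind E-boxes, short DNA elements, and drive the Per and Cry genes, Nr1d1, Nr1d2 and Dbp. PER and CRY proteins then block that drive. The proteins of Nr1d1 and Nr1d2, REV-ERBα and REV-ERBβ, are nuclear receptors that repress Arntl, Clock, Npas2 and Cry1, and DBP binds D-boxes in Per genes and in liver genes of xenobiotic metabolism. In mouse liver, transcripts of Dbp, Nr1d1, Nr1d2 and the Per genes peak between daytime and dusk (called E-box and D-box genes here), whereas those of Arntl, Clock, Npas2 and Cry1 peak from the night to dawn (called night genes here). Feeding times set the phase of the liver clock.

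The elements that join these arms were searched on both strands of the promoter windows of RefSeq, build GRCm38.p6. A window runs from 250 bases before to 50 bases after an annotated gene start, and the 9 measured genes had 13 windows. The 4 windows printed are those of measured genes that hold an element, and Arntl is shown by 1 of its 2 windows. Capitals mark CACGTG, an E-box, in Per1 and Cry1, TTANGTAA, a D-box, in Per3, and TAGGTNA, the core of the element that REV-ERB and ROR proteins share, in Arntl. Each sequence runs 5′ to 3′ on the strand of the gene.
Arntl: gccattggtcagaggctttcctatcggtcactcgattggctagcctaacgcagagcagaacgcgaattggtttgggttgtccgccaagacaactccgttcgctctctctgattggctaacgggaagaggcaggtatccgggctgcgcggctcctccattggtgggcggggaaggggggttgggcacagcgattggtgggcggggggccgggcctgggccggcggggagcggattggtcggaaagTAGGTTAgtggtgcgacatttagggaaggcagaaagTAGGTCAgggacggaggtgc
Per3: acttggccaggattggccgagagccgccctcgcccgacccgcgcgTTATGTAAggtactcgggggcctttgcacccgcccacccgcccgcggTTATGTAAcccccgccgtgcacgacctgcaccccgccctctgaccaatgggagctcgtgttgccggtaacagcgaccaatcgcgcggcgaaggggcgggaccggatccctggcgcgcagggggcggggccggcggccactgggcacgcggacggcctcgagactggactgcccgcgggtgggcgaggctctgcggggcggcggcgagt
Cry1: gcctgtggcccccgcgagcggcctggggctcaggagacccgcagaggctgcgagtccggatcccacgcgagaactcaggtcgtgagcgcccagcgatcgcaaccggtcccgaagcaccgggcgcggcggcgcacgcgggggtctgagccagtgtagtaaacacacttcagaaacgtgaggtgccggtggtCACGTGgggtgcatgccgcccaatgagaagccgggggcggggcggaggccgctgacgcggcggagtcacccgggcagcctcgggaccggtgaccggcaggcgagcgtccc
Per1: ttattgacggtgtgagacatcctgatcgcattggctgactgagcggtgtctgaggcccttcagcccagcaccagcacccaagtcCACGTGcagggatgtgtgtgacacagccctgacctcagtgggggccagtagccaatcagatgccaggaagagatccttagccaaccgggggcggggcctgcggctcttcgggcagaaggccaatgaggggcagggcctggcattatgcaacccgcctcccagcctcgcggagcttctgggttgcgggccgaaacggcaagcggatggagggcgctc

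The Arntl window (chr7:113207261-113207560, plus strand) held the element as TAGGTTA at -6 and as TAGGTCA at 31, counted from the annotated start. The Per3 window (chr4:151044616-151044915, minus strand) held TTATGTAA at -205 and -158. The Cry1 window (chr10:85185005-85185304, minus strand) had its E-box at -60 and the Per1 window (chr11:69098699-69098998, plus strand) at -166. No 2 of these matches overlapped. Among 32851 windows of this length, 7.15% held CACGTG, 2.32% TTANGTAA and 8.29% TAGGTNA. A match is a stretch of letters and was not tested as a binding site. The windows of Dbp, Nr1d1, Nr1d2, Clock and Npas2 held none of the 3 strings, which says only that these letters are not in those windows.

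No clock gene differed between the groups by more than the mice differed within them. None of the 9 was higher or lower at an unadjusted p under 0.05 in limma, against the 2.29% and 2.8% of all genes given above. In none did the 3 MUTYH-null values lie wholly above or below the 3 wild-type values, against 4.23% of all genes wholly higher and 5.29% wholly lower in MUTYH-null livers. All 5 E-box and D-box genes had a positive difference, of 0.03 to 0.20 log2, and all 4 night genes a negative one, of -0.37 to -0.07 log2, where the difference is MUTYH-null minus wild-type. The genes vary together across mice, and these signs are not independent of each other. The median difference over all genes was -0.01 log2.

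**Figure D1:**
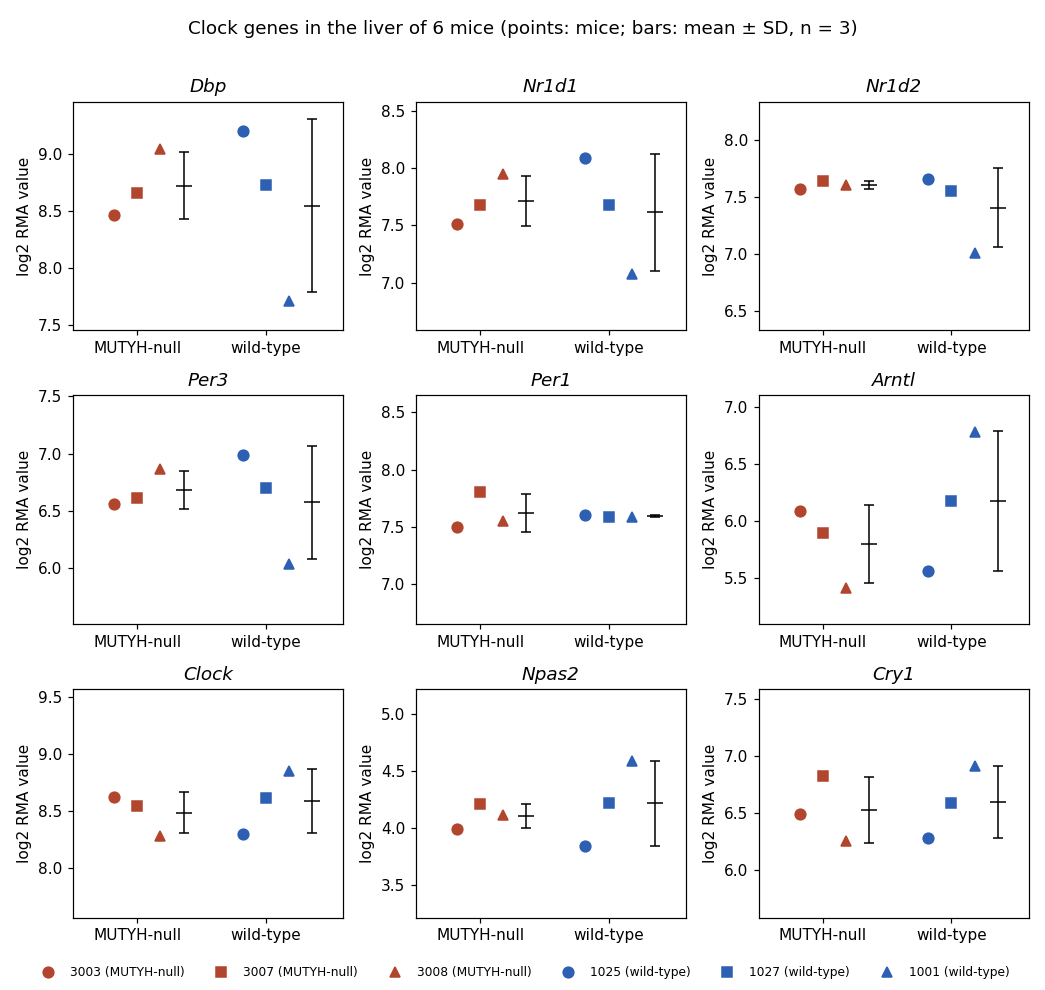
Log2 RMA value (vertical axes, each spanning 2 log2 units) of the 9 measured clock genes in 3 MUTYH-null livers (red, left) and 3 wild-type livers (blue, right), with 1 point per mouse and black bars for the mean ± SD. The groups overlap in every panel, and wild-type mouse 1001 (blue triangle) is the lowest point for Dbp, Nr1d1, Nr1d2 and Per3 and the highest for Arntl, Clock, Npas2 and Cry1.

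Dbp, the clock-driven transcription factor of D-boxes, had the widest spread. It was at 8.47, 8.66 and 9.04 in MUTYH-null mice 3003, 3007 and 3008, against 9.20, 8.72 and 7.72 in wild-type mice 1025, 1027 and 1001. All 3 MUTYH-null values lay inside the wild-type range, which covered 1.48 log2, or 2.79-fold, between mice 1025 and 1001. The difference was 0.18 ± 0.34 log2 (SE, n = 3 per group, limma adjusted p = 0.996, exact permutation p = 0.9). Without mouse 1001 it was -0.24.

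The REV-ERB genes followed the same order among wild-type mice. Nr1d1 was at 7.51, 7.68 and 7.95 in MUTYH-null livers, against 8.09, 7.67 and 7.08 in wild-type livers. Nr1d2 was at 7.57, 7.64 and 7.61 in MUTYH-null livers, against 7.66, 7.55 and 7.01 in wild-type livers. Mouse 1025 was the highest and mouse 1001 the lowest of all 6 for both genes, and the 3 MUTYH-null values of Nr1d2 lay within 0.07 log2 of each other while the wild-type values covered 0.64. The difference was 0.10 ± 0.24 log2 for Nr1d1 and 0.20 ± 0.16 log2 for Nr1d2 (SE, limma adjusted p = 0.996 and 0.985). Without mouse 1001 the difference of Nr1d1 was -0.17, and without MUTYH-null mouse 3008 it was -0.01. That of Nr1d2 was 0.00 without mouse 1001.

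The period genes, which encode repressors of the ARNTL complexes, parted from each other. Per3 was at 6.56, 6.61 and 6.87 in MUTYH-null livers, against 6.99, 6.70 and 6.03 in wild-type livers, the same order of mice as for Dbp. Its difference was 0.10 ± 0.23 log2 (SE, limma adjusted p = 0.996), and -0.17 without mouse 1001. Per1 was at 7.49, 7.81 and 7.55 in MUTYH-null livers, against 7.60, 7.59 and 7.59 in wild-type livers. It was the only measured clock gene whose wild-type values were closer together than its MUTYH-null values, with 0.02 against 0.31 log2 between the lowest and highest mouse. Its difference was 0.03 ± 0.10 log2 (SE, limma adjusted p = 0.996) and -0.07 without mouse 3007. Per1 is also known to answer glucocorticoids and cAMP within hours, apart from the daily loop.

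Among the night genes, Arntl had the largest difference. It was at 6.09, 5.90 and 5.42 in MUTYH-null livers, against 5.56, 6.18 and 6.79 in wild-type livers. Wild-type mouse 1001 was the highest and MUTYH-null mouse 3008 the lowest, and wild-type mouse 1025 was closer to mouse 3008 than to its own group. The difference was -0.37 ± 0.30 log2 (SE, limma p = 0.244, adjusted p = 0.984, exact permutation p = 0.4). It depended on mice of both groups. On the wild-type side it was -0.07 without mouse 1001 and -0.68 without mouse 1025. On the MUTYH-null side it was -0.18 without mouse 3008 and -0.52 without mouse 3003. In the fit without mouse 1025 Arntl was called at an unadjusted limma p of 0.026.

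Clock, which encodes the partner of ARNTL and is known for a shallow daily swing in liver, was at 8.63, 8.55 and 8.28 in MUTYH-null livers, against 8.29, 8.61 and 8.85 in wild-type livers. Npas2, which encodes a second partner, was at 3.99, 4.21 and 4.12 in MUTYH-null livers, against 3.85, 4.22 and 4.59 in wild-type livers, with a mean below the median signal of 4.51. Cry1, a repressor that peaks later than the Per genes, was at 6.49, 6.83 and 6.26 in MUTYH-null livers, against 6.28, 6.59 and 6.91 in wild-type livers. Mouse 1001 was the highest in all 3, mouse 3008 the lowest in Clock and Cry1, and mouse 1025 the lowest in Npas2. The differences were -0.10 ± 0.16, -0.11 ± 0.18 and -0.07 ± 0.19 log2 for Clock, Npas2 and Cry1 (SE, limma adjusted p = 0.995, 0.996 and 0.996). Without mouse 1001 they were 0.03, 0.08 and 0.09. Without mouse 3008 those of Clock and Cry1 were 0.00 and 0.06. The exact two-sided permutation p of the 9 genes lay between 0.4 and 1, and the smallest that 3 against 3 mice allow is 0.1.

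Although the groups did not part, the mice did. The range over the 6 mice was at least 1 log2 for Dbp, Arntl and Nr1d1, 3 of 9 clock genes, against 2.81% of all genes. It was at least 0.5 log2 for 8 of 9, all but Per1, against 31.2% of all genes. Dim genes scatter more on arrays, and among genes above the median signal the share was 20.4%, with 7 of 8 clock genes (Npas2 is dimmer). The median range over all genes was 0.39 log2. The SD within groups of Dbp, 0.57 log2, was larger than that of 99.7% of genes, and those of Arntl, Nr1d1 and Per3 than that of 99.3%, 97.8% and 97.0%. Cry1, Npas2, Nr1d2 and Clock stood at 93.0%, 89.7%, 85.4% and 83.2%, and Per1 at 36.3%. This spread rested in large part on mouse 1001, which was at 1 end of the range in all 8 genes other than Per1. Without it, Dbp ran from 8.47 to 9.20, Arntl from 5.42 to 6.18 and Nr1d1 from 7.51 to 8.09, each less than 1 log2. Per3, Nr1d2, Clock and Npas2 then covered less than 0.5 log2.

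**Figure D2:**
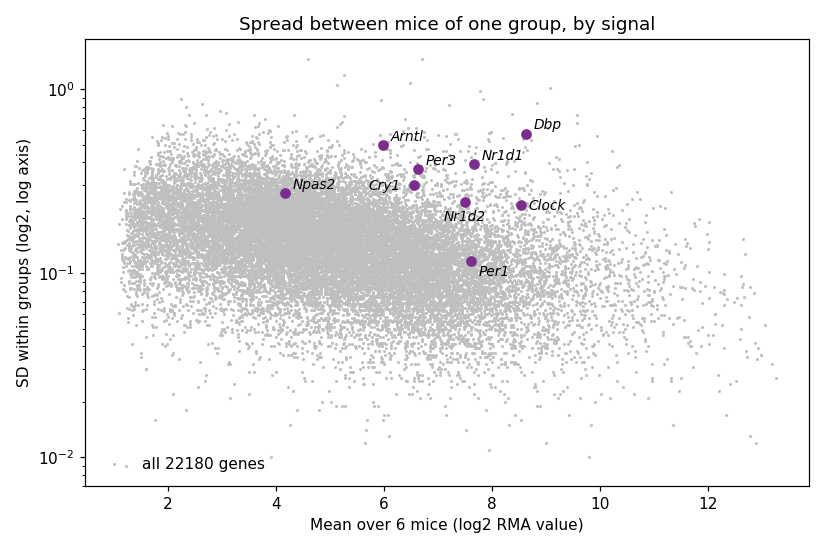
SD within groups (log2, vertical log axis) against the mean over 6 mice (log2 RMA value, horizontal axis) for 22180 genes (grey) and the 9 measured clock genes (purple). Dbp, Arntl, Nr1d1 and Per3 lie at the upper edge of genes of like signal, and Per1 lies within the grey cloud.

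With all 6 mice, the wild-type range was wider than the MUTYH-null range in 8 of 9 clock genes, all but Per1, against 49.3% of all genes. For Cry1 the ranges were close, with 0.57 log2 among MUTYH-null and 0.63 log2 among wild-type livers. This count rested on mouse 1001. Without it, the range of wild-type mice 1025 and 1027 was wider than that of the 3 MUTYH-null mice in 2 of 9, Nr1d2 and Npas2, against 30% of all genes, where 2 mice are set against 3. Mouse 1001 was the highest of the 6 in all 4 night genes and the lowest in 4 of 5 E-box and D-box genes, against the 18.8% and 18.1% of all genes given above. Mouse 1025 was at the opposite end for Dbp, Nr1d1, Nr1d2, Per3 and Npas2, also a wild-type liver.

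A clock index was taken for each mouse as the mean of the centered E-box and D-box genes minus that of the centered night genes. The values were -0.07, 0.01 and 0.49 log2 in MUTYH-null livers of mice 3003, 3007 and 3008, against 0.61, -0.05 and -0.99 log2 in wild-type mice 1025, 1027 and 1001. Mice 3008 and 1025 thus had high E-box and D-box genes with low night genes, mouse 1001 had the reverse, and the other 3 lay between. The group means were 0.14 ± 0.30 in MUTYH-null and -0.14 ± 0.81 in wild-type livers (SD, n = 3 each), with a difference of 0.28 ± 0.50 log2 (SE). Without mouse 1001 the difference was -0.14 and without mouse 1025 it was 0.66. Without MUTYH-null mouse 3008 it was 0.11. The index gets no test, since its genes were chosen with results of these data known.

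**Figure D3:**
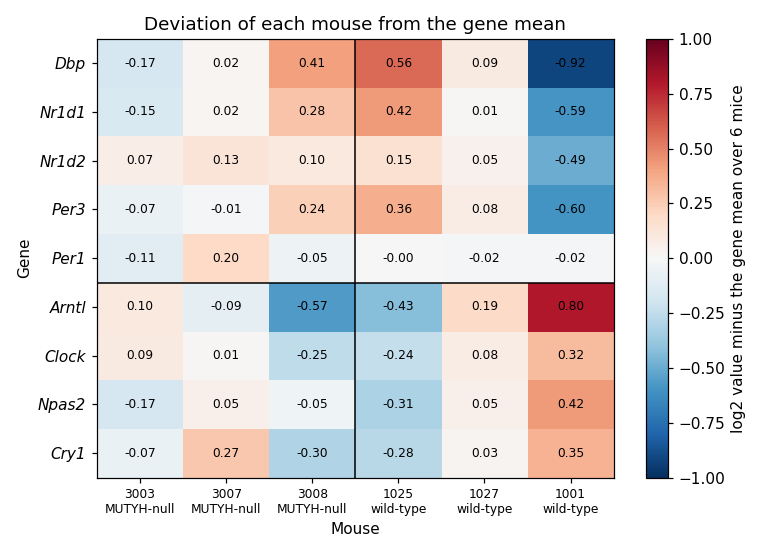
Log2 value of each mouse minus the gene's mean over the 6 mice (color and printed number) for the E-box and D-box genes (above the line) and the night genes (below it), MUTYH-null mice left and wild-type mice right. Mouse 1001 is low above the line and high below it, while mice 1025 and 3008 show the opposite signs, apart from Per1, which stays near 0 in all 3.

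The 2 arms moved against each other from mouse to mouse. Dbp and Nr1d1 had a Pearson's r of 0.994 and Dbp and Per3 of 0.997 over the 6 mice (permutation p = 0.00278 and 0.00139, adjusted p = 0.025 for both). Their Spearman's rho was 0.94 and 1 (permutation p = 0.0167 and 0.00278, adjusted p = 0.12 and 0.1). With the 2 mice farthest from the median left out (1001 and 1025), r was 0.99 and 0.98. Dbp and Arntl had an r of -0.95 (permutation p = 0.0111, adjusted p = 0.044) and a rho of -0.77 (permutation p = 0.103, adjusted p = 0.195), and r was -0.83 without those 2 mice. Arntl and Clock, the genes of the activator, had an r of 0.98 and a rho of 0.94 (permutation p = 0.00278 and 0.0167, adjusted p = 0.025 and 0.12), and r was 0.97 without mice 1001 and 3008.

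Of 36 pairs of clock genes, 9 passed an adjusted p under 0.05 by Pearson's r and none by Spearman's rho, whose values cannot separate pairs as finely with 6 mice. The smallest p that 720 pairings gave was 0.00139. These genes were chosen with results of these data known, as for the index, so the p-values describe the pairs and are no independent evidence that the arms oppose each other. Between the arms, leaving out Per1, r ran from -0.97 to -0.64 in 16 pairs, and from -0.95 to -0.13 without mouse 1001. Within the E-box and D-box genes other than Per1 it ran from 0.863 to 0.997 in 6 pairs (0.54 to 0.99 without mouse 1001). Within the night genes it ran from 0.77 to 0.98 in 6 pairs (0.40 to 0.98 without mouse 1001). The weakest pairs without that mouse involved Nr1d2 or Npas2. After the group means were removed the pairs between the arms other than those of Per1 ran from -0.99 to -0.65, close to the pooled values. For Per1, r ran from -0.07 to 0.49 in its 8 pairs and from -0.14 to 0.71 without mouse 1001, with the highest value for Cry1 in both.

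Set against all genes, Per3, Nr1d1 and Nr1d2 had an r of at least 0.8 with Dbp, 3 of 8 against 3.4% of genes. Arntl, Clock, Npas2 and Cry1 had one of -0.8 or below, 4 of 8 against 2.98%. Without mouse 1001 the counts were 2 of 8 (Per3 and Nr1d1) against 6.88%, and 2 of 8 (Arntl and Clock) against 5.76%. Values of 1 array share its labelling and normalization, which the genes of these shares have in common.

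**Figure D4:**
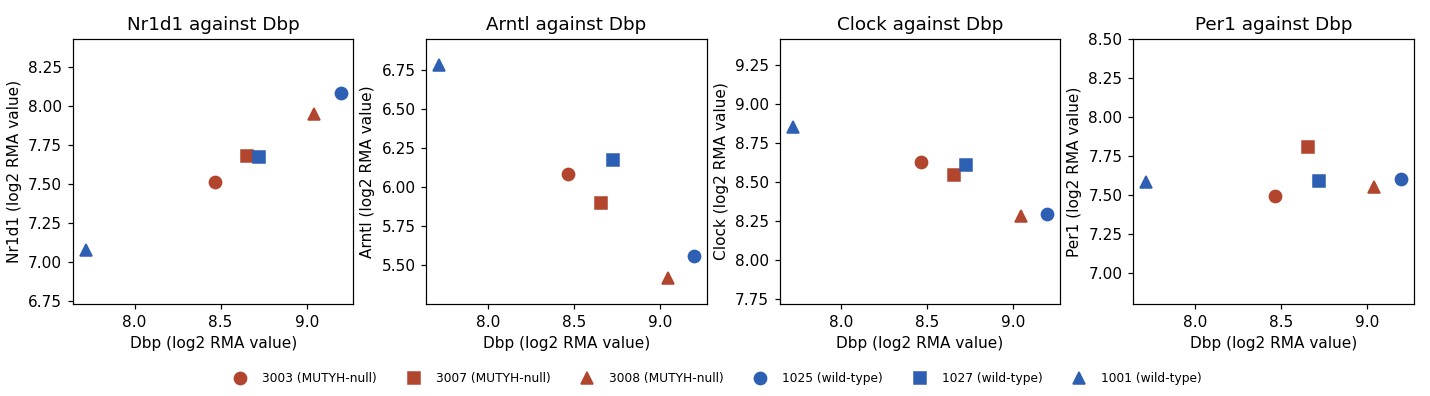
Log2 RMA values of Nr1d1, Arntl, Clock and Per1 (vertical axes) against Dbp (horizontal axis) in 3 MUTYH-null (red) and 3 wild-type (blue) livers, 1 point per mouse. Nr1d1 is higher and Arntl and Clock lower where Dbp is higher, with mouse 1001 at the far left, and Per1 shows no such order.

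Other clock genes gave the same ordering only in part. Of 25 genes listed, 21 were measured. At an unadjusted p under 0.05, 1 was higher and none lower (2.29% and 2.8% of all genes), with a median difference of 0.02 log2. Over the 21 the median r with the index was 0.11, with 2 at 0.8 or above and 1 at -0.8 or below. Tef, which encodes a relative of DBP on the same D-boxes, was at 6.30, 6.53 and 6.51 in MUTYH-null livers, against 6.80, 6.45 and 6.02 in wild-type livers, with an r of 0.93 with the index. Nfil3, whose protein opposes DBP on D-boxes, was at 6.42, 6.57 and 6.42 in MUTYH-null livers, against 5.94, 6.32 and 6.68 in wild-type livers, with an r of -0.75. For both genes the extremes were again wild-type mice 1025 and 1001, with Tef high where Nfil3 was low. Without mouse 1001 their r with the index was 0.80 and -0.65. Their differences were 0.02 ± 0.18 and 0.16 ± 0.17 log2 (SE). That of Tef was -0.07 as the mean of its 2 probe sets, where its r with the index was 0.78. The difference of Nfil3 was -0.03 without mouse 1025 and 0.34 without mouse 1001, where it passed the unadjusted limma threshold.

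Ciart, a repressor of the ARNTL complex with a sharp daily peak in liver, was at 6.00, 6.06 and 6.49 in MUTYH-null livers, against 6.57, 6.16 and 6.24 in wild-type livers. Mouse 1001 was not at the low end here, and r with the index was 0.53. Wee1, a cell cycle kinase gene driven through E-boxes, had an r of 0.77, and of 0.63 without mouse 1001. Its difference was -0.04 ± 0.13 log2, and 0.09 without mouse 1025. Bhlhe40 and Bhlhe41, which encode E-box repressors, differed by -0.15 ± 0.11 and 0.13 ± 0.18 log2, and Rora, whose protein activates Arntl, by -0.18 ± 0.10 log2 (SE). For Bhlhe40, Bhlhe41 and Rora r with the index was 0.11, 0.64 and -0.43. The mean of Bhlhe41 was 3.68, below the median signal of 4.51. Without mouse 1001 the difference of Bhlhe41 was -0.04, and without mouse 1025 that of Rora was -0.26, past the unadjusted limma threshold.

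In 3 of the 11 other clock genes described here, the groups did not overlap, against 4.23% of all genes wholly higher and 5.29% wholly lower. Hlf, which encodes the third PAR bZIP factor, was at 7.33, 7.28 and 7.38 in MUTYH-null livers, against 7.43, 7.43 and 7.61 in wild-type livers. Cry2, a repressor with a shallow rhythm, was at 6.84, 6.81 and 6.81 in MUTYH-null livers, against 6.64, 6.68 and 6.74 in wild-type livers. Nampt, the NAD salvage enzyme driven by the clock, was at 8.57, 8.87 and 8.61 in MUTYH-null livers, against 8.56, 8.55 and 8.54 in wild-type livers. For Hlf, Cry2 and Nampt r with the index was -0.62, -0.14 and 0.14. Over the 6 mice Hlf thus ran against the index, unlike Dbp and Tef, but this rested on mouse 1001, where it was highest. Among the other mice, Hlf was higher in mouse 1025, which had the highest index, than in any MUTYH-null mouse. The differences were small, at -0.16 ± 0.09, 0.13 ± 0.08 and 0.13 ± 0.10 log2 for Hlf, Cry2 and Nampt (SE, limma adjusted p = 0.969, 0.969 and 0.984), and without mouse 3007 that of Nampt was 0.04.

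Usp2, a rhythmic deubiquitinase gene, was the 1 higher gene of the list. It was at 8.13, 8.47 and 8.44 in MUTYH-null livers, against 8.21, 8.02 and 7.90 in wild-type livers. Mouse 3003 was lower than mouse 1025, so the groups overlapped. The r of Usp2 with the index was 0.68, and 0.33 without mouse 1001. The difference was 0.30 ± 0.13 log2 (SE, limma p = 0.044, adjusted p = 0.963, exact permutation p = 0.2). The call was lost without mouse 3007, 3008, 1027 or 1001, with differences of 0.23 to 0.29. Among 11 clock kinase, ligase and related genes measured, Usp2 was again the 1 that was higher and none was lower (2.29% and 2.8% of all genes).

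**Figure D5:**
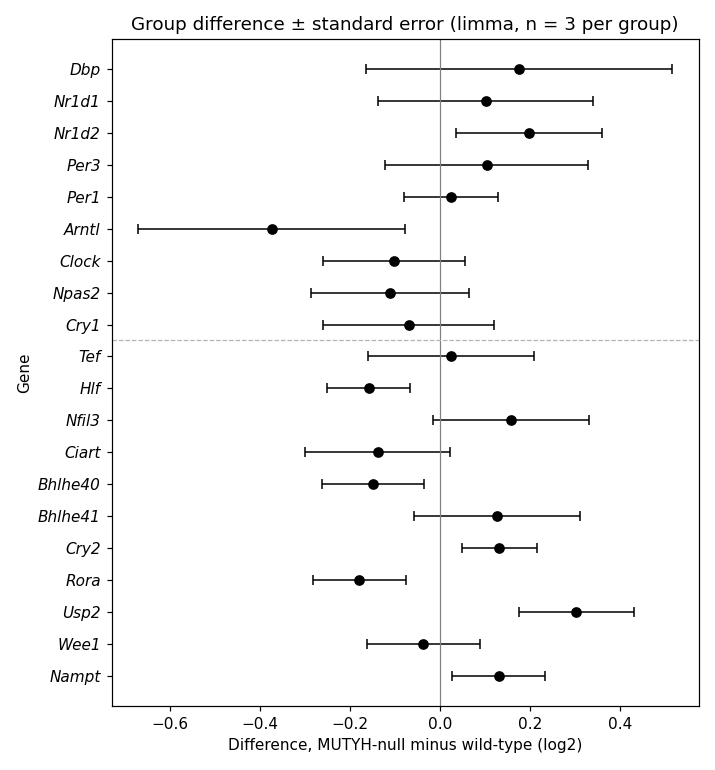
Difference in log2 RMA value, MUTYH-null minus wild-type (horizontal axis, point with standard error from limma, 3 mice per group), for the 9 measured clock genes (above the dashed line) and 11 other clock genes (below it). The points of Dbp, Nr1d1, Nr1d2, Per3 and Per1 lie right of 0 and those of Arntl, Clock, Npas2 and Cry1 left of it, and the point of Usp2 is the farthest right.

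Genes downstream of the clock were read from lists. Of 14 measured liver targets of DBP, TEF and HLF, 2 were higher and none lower at an unadjusted p under 0.05 (2.29% and 2.8% of all genes), with a median difference of -0.05 log2. They were the carboxylesterase gene Ces3b, at 0.55 ± 0.17 log2, and the cytochrome gene Cyp3a13, at 0.31 ± 0.11 log2 (SE, limma adjusted p = 0.963 for both), and their r with the index was 0.33 and -0.23. Ces3b lost the call without mouse 3007 (0.42) and Cyp3a13 without mouse 3003 or mouse 1025 (0.25 for both). Of 32 measured rhythmic output genes, Usp2 was higher and the tubulin gene Tubb2a lower (2.29% and 2.8% of all genes), with a median difference of 0.00 log2 over the list. The difference of Tubb2a was -0.68 ± 0.27 log2 (SE, limma adjusted p = 0.963). Tubb2a lost the call without mouse 3007, 3008, 1025 or 1001, at -0.71 to -0.41.

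Leaving out the core clock genes, but not Nfil3, 9 REV-ERB repressed genes were measured. None was higher or lower (2.29% and 2.8% of all genes), with a median difference of 0.07 log2. Over these 9 the median r with the index was -0.11, and 2 had an r of -0.8 or below and none of 0.8 or above. In the other lists the median r was -0.34 for the 14 targets of DBP, TEF and HLF, with 1 at 0.8 or above and 1 at -0.8 or below, and -0.33 for the 32 rhythmic output genes, with 2 and 2. From these lists 5 genes are shown that were chosen after their values were seen, and they are not the 5 with the highest size of r. Insig2, which encodes a brake on SREBP processing and is a known REV-ERBα target in mouse liver, was at 9.35, 8.99 and 9.06 in MUTYH-null livers, against 8.97, 9.17 and 9.86 in wild-type livers. Avpr1a, the hepatic vasopressin receptor gene, was at 5.41, 5.80 and 5.39 in MUTYH-null livers, against 5.51, 5.80 and 6.44 in wild-type livers. Elovl3, a fatty acid elongase gene with a strong daily rhythm, was at 8.82, 9.49 and 9.27 in MUTYH-null livers, against 9.24, 9.73 and 10.93 in wild-type livers. The highest value of each was that of mouse 1001, on the side of Arntl. Their r with the index was -0.92, -0.88 and -0.80, and -0.65, -0.49 and -0.09 without mouse 1001.

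On the other side, Coq10b, a rhythmic gene of coenzyme Q handling, was at 7.56, 7.70 and 7.78 in MUTYH-null livers, against 7.79, 7.41 and 7.11 in wild-type livers. Alas1, the rate-limiting heme synthesis enzyme and the 1 target of DBP, TEF and HLF with an r of 0.8 or above, was at 11.24, 11.36 and 11.39 in MUTYH-null livers, against 11.25, 11.14 and 10.97 in wild-type livers. Both were lowest in mouse 1001. In the same list as Alas1, Gsta3, a glutathione transferase gene, ran the other way, with an r of -0.81, and was also picked after its value was seen. For Coq10b and Alas1 the r with the index was 0.95 and 0.81, and 0.81 and 0.38 without mouse 1001.

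Across the whole array, 209 genes outside the clock genes had a mean above the median signal and a range of at least 1 log2. The 6 that ran most closely against the index were Bach2 (r = -0.99), Clpx (-0.97), Leap2 (-0.96), Chka (-0.95), Cyp3a25 (-0.89) and Acot1 (-0.88). Bach2, the gene of a heme-binding repressor, was at 5.88, 5.72 and 5.50 in MUTYH-null livers, against 5.40, 5.94 and 6.43 in wild-type livers. Leap2, which encodes a liver peptide that opposes ghrelin, was at 6.24, 6.21 and 5.83 in MUTYH-null livers, against 5.87, 6.59 and 7.17 in wild-type livers. Chka, the choline kinase gene, was at 7.38, 6.97 and 6.53 in MUTYH-null livers, against 6.64, 7.41 and 7.98 in wild-type livers. Leap2 and Chka ranked the 6 mice as Arntl did, and Bach2 turned round only the lowest pair. Without mouse 1001 r was still -0.96 for Bach2, -0.93 for Clpx, -0.87 for Leap2, -0.91 for Chka and -0.89 for Cyp3a25, but -0.42 for Acot1.

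The 6 that went most closely with the index were Dcpp3 (r = 0.92), A4gnt (0.89), Cd40 (0.87), Ntrk2 (0.87), Zfp93 (0.85) and Gadd45g (0.84). Without mouse 1001 these were 0.65, 0.55, 0.62, 0.36, 0.69 and 0.46, in the same order. Gadd45g, a stress-inducible gene, was at 6.83, 7.11 and 7.61 in MUTYH-null livers, against 6.84, 6.67 and 5.83 in wild-type livers. Each of these genes was lowest in mouse 1001. Mouse 1001, which had the lowest index, was the highest or the lowest in every gene of both sets of 6. The range limit counts that mouse, so the choice of genes itself favors likeness to the index. Such r values are the extremes of 209, over 6 mice, and are given as a description.

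Signals that can move the liver clock were read beside these values. Of 18 measured fasting responsive genes, 1 was higher and none lower (2.29% and 2.8% of all genes), with a median difference of -0.01 log2. That gene was Irs2, the insulin receptor substrate, at 0.33 ± 0.14 log2 (SE, limma adjusted p = 0.963), and it lost the call without mouse 3003, 3007, 1025 or 1001 (0.18 to 0.36). Mouse 1001 was the highest in 9 of the 18, and the list deviated on average by 0.06, 0.04 and -0.14 log2 in MUTYH-null mice 3003, 3007 and 3008, against -0.13, 0.02 and 0.15 log2 in wild-type mice 1025, 1027 and 1001. It was low in mice 3008 and 1025 and high in mouse 1001, as the night genes were. Of 18 measured feeding responsive genes, 5 were lower and none higher (2.8% and 2.29% of all genes), with a median difference of -0.12 log2. They were the lipogenic genes Pnpla3 at -0.94 ± 0.21, Acly at -0.35 ± 0.09, Fasn at -0.43 ± 0.12 and Me1 at -0.44 ± 0.14, with Insig1 at -0.28 ± 0.10 log2 (SE, limma adjusted p = 0.963 for all). The groups did not overlap in these 5 (5.29% of all genes were wholly lower). The 5 were picked by their p on the same values, so this adds nothing to the calls. The feeding list deviated on average by -0.07, -0.03 and -0.18 log2 in MUTYH-null mice 3003, 3007 and 3008, against 0.07, 0.02 and 0.19 log2 in wild-type mice 1025, 1027 and 1001, so that it too was lowest in mouse 3008 and highest in mouse 1001, which was the highest in 7 of the 18. Me1 lost the call without mouse 3007 or 1001 (-0.32 and -0.36) and Insig1 without mouse 3007, 1025 or 1027 (-0.21 to -0.27).

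Of 16 measured glucocorticoid responsive genes other than Per1, none was higher or lower (2.29% and 2.8% of all genes), with a median difference of 0.06 log2. Of 13 measured temperature and heat shock responsive genes, which in liver follow the daily rhythm of body temperature, none was higher or lower (the same shares of all genes). Their median difference was -0.03 log2. Mouse 1001 was the highest in 8 of these 13, with a mean deviation of the list of -0.11, 0.12 and -0.05 log2 in the MUTYH-null livers, compared with 0.03, -0.33 and 0.33 log2 in the wild-type livers. The part of these signals in the clock gene values was not tested.

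The cell makeup of the tissue was followed through marker genes. Of 18 measured hepatocyte markers, none was higher and 1 was lower (2.29% and 2.8% of all genes). The 1 was the cytochrome gene Cyp1a2, at -0.31 ± 0.13 log2. The mean deviation of the list stayed between -0.06 and 0.09 log2 in all 6 mice. The call of Cyp1a2 was lost without mouse 3003, 3007 or 1001 (-0.28 to -0.17). Of 13 measured Kupffer cell and macrophage markers, 2 were higher and 2 lower (2.29% and 2.8% of all genes), with a median difference of 0.01 log2. The scavenger receptor gene Marco and the resident Kupffer gene Timd4 were lower, at -0.38 ± 0.10 and -0.64 ± 0.20 log2, with Timd4 below the median signal. Itgax and Gpnmb, genes of lipid-associated macrophages, were higher, at 0.38 ± 0.15 and 0.42 ± 0.16 log2 (SE). Not called were Clec4f, Vsig4, Cd5l, Adgre1 and Csf1r, at -0.21, 0.34, -0.05, -0.05 and -0.01 log2, and Trem2 and Cd9, at 0.24 and 0.01 log2. Timd4 lost the call without mouse 3007 (-0.51), and Itgax and Gpnmb without mouse 3003, 3007, 1027 or 1001 (0.25 to 0.40). On average this list deviated by 0.11, 0.11 and -0.16 log2 in MUTYH-null mice 3003, 3007 and 3008, against 0.32, -0.06 and -0.31 log2 in wild-type mice 1025, 1027 and 1001. It was highest in mouse 1025 and lowest in mouse 1001, as the index was, but low in mouse 3008, where the index was high. Its part in the clock gene values was not tested.

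None of 11 measured T and NK cell markers was higher or lower at an unadjusted p under 0.05. Here and for the lists that follow, the shares of all genes were 2.29% higher and 2.8% lower. Of 12 B and plasma cell markers Prdm1 was higher (0.36 ± 0.13 log2) and Sdc1 lower (-0.31 ± 0.13 log2), of 12 stellate cell markers Lum was higher (0.62 ± 0.16 log2), of 10 endothelial markers Lyve1 was higher (0.46 ± 0.18 log2) and of 7 cholangiocyte markers Muc1 was higher (0.57 ± 0.19 log2). Apart from Lum, each lost its call when 1 mouse was left out: Prdm1 without mouse 3007, 3008 or 1001 (0.23 to 0.35), Sdc1 without mouse 3007, 3008, 1025 or 1027 (-0.36 to -0.20), Lyve1 without any mouse but 3008 (0.26 to 0.51) and Muc1 without mouse 3003 (0.50). Among the B and plasma cell markers, Jchain and Tnfrsf17 were not called, at 1.40 and 0.56 log2. Their ranges over the 6 mice were 3.26 and 1.37 log2. The difference was positive for 10 of the 12 markers of this list. The mean deviation of B and plasma cell markers was highest in mouse 3008, at 0.52 log2. That of stellate cell markers was highest in mouse 3007, at 0.39 log2. Neither follows the order of the index.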

How the data were processed

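Liver RNA of 6 mice, 3 MUTYH-null and 3 wild-type, was measured on 1 Affymetrix array per mouse. The log2 values used were deposited by the authors after RMA, which corrects background, normalizes arrays and sums probes to probe sets. Transcriptome Analysis Console and Affymetrix Expression Console are named in the labels. Mouse genes are listed in the array's probe table, although the methods give a human design. Scan batches are not given in the sources used here.

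Each gene was represented by the probe set with the highest mean among those naming only that gene. The mouse table of GRCm38.p6 held the Entrez ID of 21994 of the 22180 genes. No filter on dim genes was applied. The groups were compared, MUTYH-null minus wild-type, by limma 3.58.1 (lmFit, then eBayes; R 4.3.3), with Benjamini-Hochberg adjustment over all 22180 genes, after the procedure was tested on simulated data. An exact two-sided permutation test was added for single genes, and pairs of genes were correlated and tested by permutation in scipy 1.17.1, adjusted over 36 pairs. Precision is limited by the number of mice.

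The clock genes and all lists were chosen with earlier results of these data known. Named in the text are the clock genes, 11 other clock genes, list members with a limma p under 0.05 (at most 4 per list by the strongest test, with Insig1 added after its values were seen), 6 list genes picked after their values were seen (Insig2, Avpr1a, Elovl3, Coq10b, Alas1 and Gsta3), and the 6 genes nearest to the index on each side. Jchain, Tnfrsf17 and the macrophage markers given without a call were also named after their values were seen. Alternatives were a filter on dim genes, quantile normalization, median centering, the mean of the probe sets, a robust variance trend, array weights, all probe sets, and leaving out each mouse. Counts without mouse 1001 were added after seeing the data. Names and promoter sequences came from RefSeq.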

Additional observations from a re-analysis of the deposited data

How the results depend on the processing

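No clock gene was called at an unadjusted limma p under 0.05 under the filter on dim genes, which leaves out Npas2, quantile normalization, median centering, the mean of the probe sets, the robust variance trend or array weights. Leaving out each mouse gave 0 to 1 called clock genes, the 1 being Arntl without mouse 1025. Genes at an adjusted p under 0.05 numbered 0 under each of these settings and 2 when all probe sets were tested. The index difference ran from -0.14 (without mouse 1001) to 0.66 (without mouse 1025), and array weights give no value for it. Of 107 differences of clock genes under the alternatives, 10 turned the direction, all with 1 mouse left out and in 7 genes. With each mouse left out in turn, the lowest and highest differences were -0.069 and 0.087 for Per1, -0.17 and 0.31 for Per3, -0.17 and 0.34 for Nr1d1, and -0.24 and 0.50 for Dbp. They were -0.25 and 0.032 for Clock, -0.29 and 0.075 for Npas2, and -0.22 and 0.089 for Cry1. Arntl and Nr1d2 kept their direction, with -0.68 and -0.067 for Arntl, and 0.0021 and 0.32 for Nr1d2. Of the other clock genes they were -0.18 and 0.21 for Tef, -0.026 and 0.34 for Nfil3, -0.045 and 0.27 for Bhlhe41, and -0.14 and 0.085 for Wee1. The mean of its 2 probe sets gave -0.066 for Tef.

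The call of Usp2 was lost after quantile normalization (0.30), that of Irs2 after median centering (0.33), that of Tubb2a with the robust trend (-0.68) and that of Sdc1 as the mean of its probe sets (-0.22). The cause of these changes was not tested. No paired analysis was possible because the animal numbers are not shared between the groups. With 3 mice per group and no read depth on arrays, the precision is set by the spread between mice. Low signals such as that of Npas2 lie below the median signal, and their distance from the array background was not measured.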
